A study of Mus musculus with 10 samples.

Results

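Mtf2 ChIP-seq in fetal liver pro-erythroblasts placed 9594 of 25805 autosomal peaks in gene deserts, and 8654 of these had no counterpart in the erythroblast list. These 8654 regions, 29.9% of all 28918 Mtf2 peaks of the pro-erythroblasts, are described here. They were chosen by 3 criteria applied to the peak lists: a summit outside every protein-coding gene on the 19 autosomes, more than 100 kb from every protein-coding transcription start site (TSS), and no base shared with an Mtf2 peak of the erythroblasts. Their presence in the first list and absence from the second was therefore fixed by the choice and is not a result. Read coverage of the erythroblast library at these places was not analysed here, so a missing peak is not a missing signal.

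The cells came from e14.5 mouse fetal livers and were sorted into CD71+Ter119-/lo pro-erythroblasts and the later CD71+Ter119high erythroblasts, with 500000 cells per sample. Mtf2 (named Pcl2 in the labels) was mapped in WT cells of both fractions. H3K27me3 was mapped in WT cells and in constitutive Mtf2-null (Pcl2 -/-) cells of both fractions, where Mtf2 is missing from blood cells and stroma alike, and IgG from each fraction and genotype served as control. All embryos were on the C57Bl/6 background, and the targeted ES cells of the null line were aggregated with CD1 blastocysts to make chimeras. Each condition had 1 library here, so no spread between replicates and no test could be given, and 95% Wilson intervals cover counting error only.

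Mtf2 is a Polycomb-like subunit of Polycomb repressive complex 2 (PRC2), the enzyme complex that trimethylates lysine 27 of histone H3, a mark of silenced chromatin. Its DNA-binding domain prefers unmethylated CpG-rich DNA, and the best known PRC2 targets are CpG islands at promoters of developmental genes. Gene deserts are long stretches without protein-coding genes. They hold distal regulatory elements and many copies of mobile elements, most of them silenced by DNA methylation and histone marks.

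The strongest of these peaks were long, and their DNA was not particular to 1 place. The windows below are the 300 bp around the summit of the 4 highest-scoring peaks and, for comparison, of the highest-scoring desert peak that was shared with erythroblasts, which is no member of the set. They are shown because their letters recur between sites. All are NCBIM37 (mm9), plus strand, with CpG dinucleotides in capitals.
chr15:56008297-56008596: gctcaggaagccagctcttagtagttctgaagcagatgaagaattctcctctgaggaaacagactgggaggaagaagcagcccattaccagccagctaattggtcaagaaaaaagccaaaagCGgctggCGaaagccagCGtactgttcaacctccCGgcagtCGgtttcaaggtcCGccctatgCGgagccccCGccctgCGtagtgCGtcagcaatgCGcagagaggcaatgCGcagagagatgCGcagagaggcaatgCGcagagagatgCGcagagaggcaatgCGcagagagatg
chr1:105103245-105103544: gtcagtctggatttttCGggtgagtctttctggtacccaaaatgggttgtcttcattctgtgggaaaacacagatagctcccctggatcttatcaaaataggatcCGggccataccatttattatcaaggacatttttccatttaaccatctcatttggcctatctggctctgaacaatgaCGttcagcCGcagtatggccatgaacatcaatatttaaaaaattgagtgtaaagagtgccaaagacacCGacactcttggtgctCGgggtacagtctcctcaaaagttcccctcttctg
chr9:30450740-30451039: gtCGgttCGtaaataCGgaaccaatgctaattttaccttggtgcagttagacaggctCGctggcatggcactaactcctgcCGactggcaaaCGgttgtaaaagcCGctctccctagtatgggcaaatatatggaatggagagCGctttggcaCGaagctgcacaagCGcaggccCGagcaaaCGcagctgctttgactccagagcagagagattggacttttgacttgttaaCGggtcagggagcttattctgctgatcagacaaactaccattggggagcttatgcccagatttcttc
chr4:75263314-75263613: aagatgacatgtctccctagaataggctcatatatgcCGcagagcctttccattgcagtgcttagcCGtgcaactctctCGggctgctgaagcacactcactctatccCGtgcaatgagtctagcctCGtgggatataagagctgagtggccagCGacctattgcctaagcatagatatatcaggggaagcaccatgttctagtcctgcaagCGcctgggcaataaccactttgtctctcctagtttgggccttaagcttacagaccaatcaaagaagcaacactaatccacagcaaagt
chr9:32652740-32653039, shared with erythroblasts: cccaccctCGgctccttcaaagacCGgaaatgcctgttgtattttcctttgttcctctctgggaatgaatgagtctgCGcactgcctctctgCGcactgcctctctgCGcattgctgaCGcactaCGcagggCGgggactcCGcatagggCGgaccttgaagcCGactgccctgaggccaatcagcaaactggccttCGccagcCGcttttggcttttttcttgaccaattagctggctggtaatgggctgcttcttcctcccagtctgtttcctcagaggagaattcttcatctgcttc

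The first window lies in the peak chr15:56007209-56014752, 270.0 kb from the nearest TSS, that of Sntb1, with 433 tags. Its score, -10 log10 of the peak caller's p, was 1589.45, and it was enriched 20.18-fold over IgG. The 1 kb around its summit shared 265 of its 903 distinct 25-base words (25-mers, either strand) with the same window of the peak chr9:30449433-30456702, near Snx19. It shared 345 of 903 with the shared peak chr9:32646630-32654186, near Ets1, so the regions on either side of the selection held related DNA. In the set's summit windows every 25-mer was then counted over chromosomes 1 to 19, X and Y. In the first window all 25-mers occurred 10 or more times in the genome, with a median of 612.0 copies. In the windows of the 10 highest-scoring peaks the lowest such share was 92.9%.

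The 2 windows richest in CpG among the set's 1 kb windows were of different kinds, and are shown because Mtf2 is known to bind CpG-rich DNA. Again 300 bp around the summit are printed, plus strand, with CpG in capitals.
chr4:72955978-72956277: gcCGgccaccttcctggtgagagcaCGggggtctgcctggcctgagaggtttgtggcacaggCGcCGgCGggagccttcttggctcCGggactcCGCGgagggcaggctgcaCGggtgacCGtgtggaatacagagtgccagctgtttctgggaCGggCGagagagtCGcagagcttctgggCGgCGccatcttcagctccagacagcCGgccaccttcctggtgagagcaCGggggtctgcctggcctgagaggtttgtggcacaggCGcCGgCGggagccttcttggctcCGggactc
chr2:46137594-46137893: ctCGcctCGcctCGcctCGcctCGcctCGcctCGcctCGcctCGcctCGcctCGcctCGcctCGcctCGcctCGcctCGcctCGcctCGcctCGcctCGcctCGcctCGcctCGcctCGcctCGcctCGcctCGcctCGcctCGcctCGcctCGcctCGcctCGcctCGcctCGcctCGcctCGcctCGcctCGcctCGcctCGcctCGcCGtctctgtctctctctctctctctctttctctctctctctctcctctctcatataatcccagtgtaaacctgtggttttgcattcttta
The first, 108.0 kb from the TSS of Gm11487, held 76 CpG in 1 kb and a median of 996.5 genome copies per 25-mer, with a score of 593.03. The second, 1160.0 kb from the TSS of Zeb2, held 94 CpG in 1 kb, of which 43 lie in the printed 300 bp, many of them in the tandem run that opens the window. Its score of 60.37 was near the lower quartile of the set, 60.17. An H3K27me3 peak of Mtf2-null CD71+Ter119-/lo cells, with 47 tags, overlapped this second region. That peak comes from cells without Mtf2 and from a list whose FDR was 100% throughout.

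Repeated sequence was common to most of the set. The median peak had 84.8% of the 25-mers of its 1 kb summit window at 10 or more genome copies (95% interval of the median 84.0 to 85.5, n = 8654). The median over 36322 tiles of 1 kb placed every 20 kb in the same deserts was 3.69%. Windows with at least 50% repeated 25-mers made up 86.1% (7455 of 8654, 85.4 to 86.9) of the set and 12.8% (4655 of 36322) of the tiles. The same feature marked the rest of the Mtf2 list: the median was 94.9% in the 940 desert peaks shared with erythroblasts and 79.4% in the 14497 pro-erythroblast-only peaks outside deserts. The autosomal Mtf2 peaks of erythroblasts had a median of 90.5%.

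**Figure D1:**
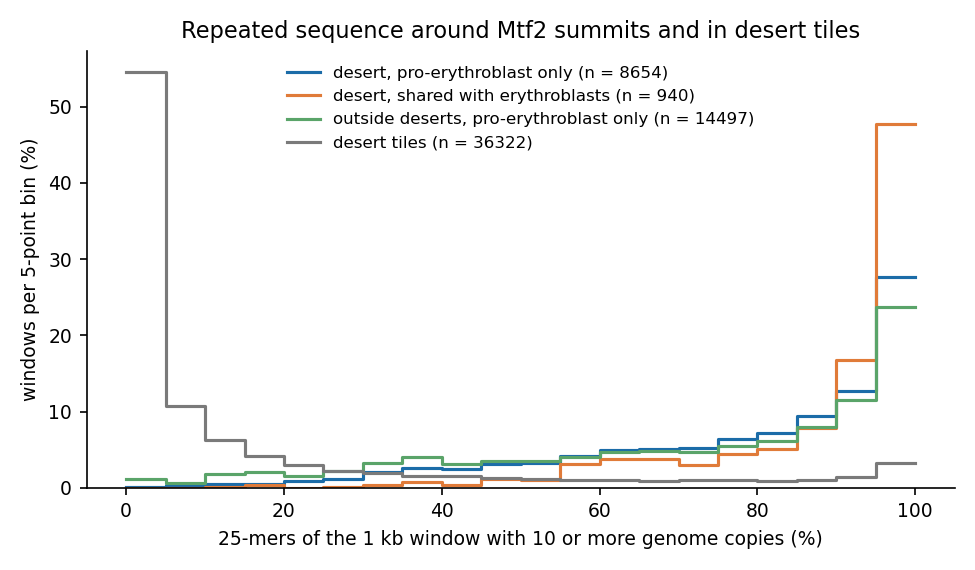
Share of 25-mers with 10 or more genome copies in 1 kb windows (x axis, percent) against the percent of windows in each 5-point bin (y axis), for 3 sets of pro-erythroblast Mtf2 peaks and for desert tiles. The 3 peak sets pile up at the right end, with medians of 84.8%, 94.9% and 79.4%, while the tiles pile up at the left, with a median of 3.69%.

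The H3K27me3 lists, from WT and Mtf2-null cells of both fractions, did not all share this feature. The median share of repeated 25-mers was 64.8% in the WT CD71+Ter119-/lo list and 71.6% in the Mtf2-null CD71+Ter119high list. It was 0.0% in the WT CD71+Ter119high list and 8.40% in the Mtf2-null CD71+Ter119-/lo list. A short read from repeated DNA can align equally well at several places, and how such reads were counted is not given in the sources used here. Non-redundant (unique) tags, as the peak caller counts them, made up 34.6% of the tags in the pro-erythroblast Mtf2 library and 39.7% in the erythroblast one, against 78.4% to 85.4% in the 4 H3K27me3 libraries. The IgG libraries varied too. In WT cells, 16898992 of 22370612 tags were unique for CD71+Ter119-/lo and 12345800 of 21250808 for CD71+Ter119high. In Mtf2-null cells these were 39667267 of 93760420 and 20646036 of 22499706. The part of alignment and duplicate tags in the repeated share was not tested.

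Only 207 of the 8654 regions (2.39%, 2.09 to 2.74) had under 25% repeated 25-mers. They were short and weak by score but high by fold enrichment. Their median length was 756 bp, on 28 tags, and they scored 59.1 at 15.1-fold enrichment. The other 8447 regions had medians of 1470 bp and 64 tags, and scored 79.5 at 8.68-fold enrichment. The 2 highest fold enrichments of the set belonged to repeated sequence of group 3, described below, 49.13 at chr10:50948263-50949529 near Gp49a and 44.35 at chr15:53868986-53870312 near Samd12. The next was mostly single-copy, the peak chr15:21917267-21917786 with a fold of 43.05 from 41 tags, 561.0 kb from Cdh18, a classical cadherin gene. Among single-copy and repeated regions alike, WT CD71+Ter119-/lo H3K27me3 overlapped a like share, 6.76% (14 of 207, 4.07 to 11.0) where under 25% of 25-mers were repeated and 7.75% (271 of 3495, 6.91 to 8.69) where 90% or more were. The Mtf2-null CD71+Ter119high list overlapped 1.45% (3 of 207, 0.494 to 4.17) and 4.72% (165 of 3495, 4.07 to 5.48) of these. Longer regions were overlapped more often by the WT list, and the part of the difference in length was not tested.

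The repeated windows fell into groups of related sequence. Starting from the window that shared at least 100 distinct 25-mers with the most others, 10 groups were taken in turn, numbered by size. They took in 5190 of 8654 regions (60.0%, 58.9 to 61.0), and each had members on all 19 autosomes. They took in 56.8% of the desert peaks shared with erythroblasts, 45.6% of the pro-erythroblast-only peaks outside deserts and 7.50% of the desert tiles. Since the groups were built on the set's own windows, its share is fixed in part by the construction. No annotation of mobile elements was used, so the groups carry numbers in place of names. The 40-base run found in more regions of a group than any other, in 40% to 62.9% of its regions, is printed below in 1 orientation with CpG in capitals, because it recurs without a mismatch.
Group 1: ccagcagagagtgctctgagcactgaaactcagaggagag
Group 2: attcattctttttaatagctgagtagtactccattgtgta
Group 3: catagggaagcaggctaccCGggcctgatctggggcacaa
Group 4: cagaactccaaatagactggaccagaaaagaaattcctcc
Group 5: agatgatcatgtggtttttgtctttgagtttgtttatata
Group 6: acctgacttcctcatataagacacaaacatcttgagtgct
Group 7: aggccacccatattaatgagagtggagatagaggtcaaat
Group 8: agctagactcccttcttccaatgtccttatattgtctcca
Group 9: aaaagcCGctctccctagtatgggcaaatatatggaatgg
Group 10: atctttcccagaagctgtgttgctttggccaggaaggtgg

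Group 1 was the largest, with 1240 regions, and its run was found in 496 of them and at 3557 places in the genome. The group 2 run was the most copied, at 22635 places, and was also common in the tiles, in 486 of 36322 (1.34%). The group 9 run was found in 124 of its 210 regions (59.0%), at 1190 places in the genome and in only 18 tiles (0.0496%). It is also contained in the third window printed above, chr9:30450740-30451039, on the same strand. The copies printed come from chr9:99975275-99975314 for group 1, chr1:142611974-142612013 (minus strand) for group 2 and chr15:56008894-56008933 for group 9. Each of these is 1 of many places in the genome with the same letters.

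The ratio of the share in the set to the share in the tiles differed between the groups. The groups were built on the set's own windows, so a larger share in the set is fixed in part by the construction. Groups 2 and 5 held 9.45% and 5.55% of the set and 2.37% and 1.49% of the tiles, which are ratios of 3.98 and 3.71. Group 1 held 14.3% of the set and 1.28% of the tiles, a ratio of 11.2. Group 6 was the furthest from the tiles, with 4.16% (3.76 to 4.60) of the set and 0.118% (0.0879 to 0.159) of the tiles, a ratio of 35.1. Group 9 followed with 2.43% and 0.127%, a ratio of 19.2. The median copies per 25-mer were 9217 in group 5 and 436 in group 6, the ends of this order.

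**Figure D2:**
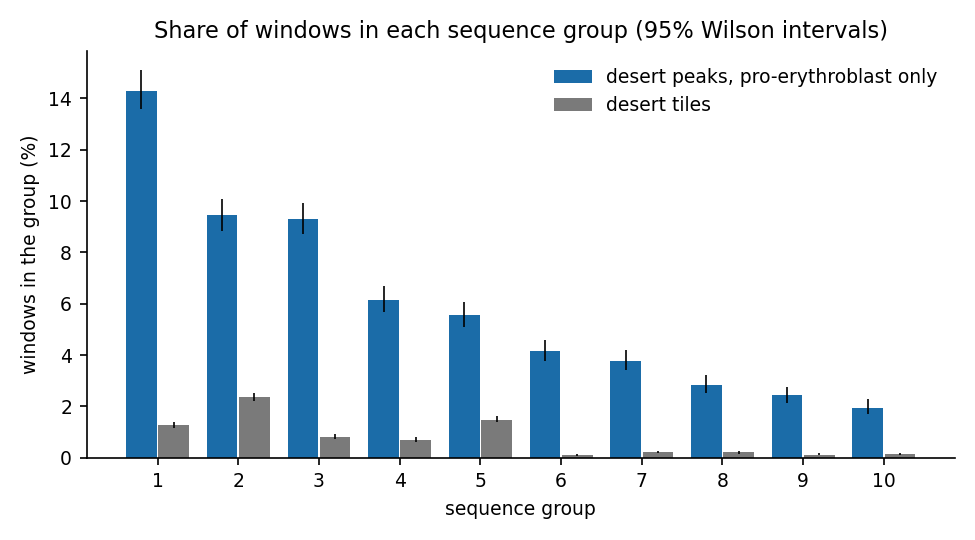
Percent of windows in each of the 10 sequence groups (x axis) among the 8654 desert peaks without an erythroblast counterpart and among 36322 desert tiles, with 95% Wilson intervals. Every group holds a larger share of the peaks than of the tiles, from 3.71 times in group 5 to 35.1 times in group 6. This excess is fixed in part, since the groups were built on the windows of these peaks.

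Group 9, as formed at 100 shared 25-mers, had the largest peaks of the 10 groups. Its median length was 3180 bp, its median tag count 162, its median score 343 (quartiles 215 to 489) and its median fold enrichment 10.9. Over the whole set the medians were 1434 bp, 62 tags, a score of 78.8 and a fold of 8.74. Peaks over 4 kb made up 55 of 210 (26.2%) in group 9 and 598 of 8654 (6.91%) in the set. The group was CpG-rich as well, with a median of 34 CpG per kb against 10 in the set and 5 in the tiles. Group 7, with a median score of 128, was the next highest by score, and group 2 was the lowest with 65.3. With 200 shared 25-mers in place of 100 the groups were formed anew, and the highest median score of any group was then 150.5. By fold enrichment the groups were close, with medians from 7.80 in group 5 to 10.9 in group 9.

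The 10 highest-scoring regions had nearly the same length, between 7270 and 7870 bp, with 380 to 433 tags each. Of these 10, 6 belonged to group 9, and 6 were overlapped by a WT CD71+Ter119-/lo H3K27me3 peak. None was overlapped by a peak of the other 3 H3K27me3 lists. Those named here, after the first, were chr1:105101345-105109214 near Cdh20, chr9:30449433-30456702 near Snx19, chr4:75262556-75270075 near 3110001D03Rik, chr11:91960288-91967738 near Kif2b, chr7:33819803-33827356 near Gm6003, chr8:92441623-92449439 near Tox3, chr2:100986216-100993882 near B230118H07Rik and chr1:151240036-151247765 near Pla2g4a. The distances of these to the TSS ran from 125.0 kb (Gm6003) to 1560.0 kb (Cdh20, a cadherin). The longest region, chr3:6297359-6308246, measured 10888 bp, held 630 tags with a score of 816.19 and belonged to group 3. The set had 48 regions of 7 kb or more, of which 10 were in group 9, 17 in other groups and 21 in none.

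**Figure D3:**
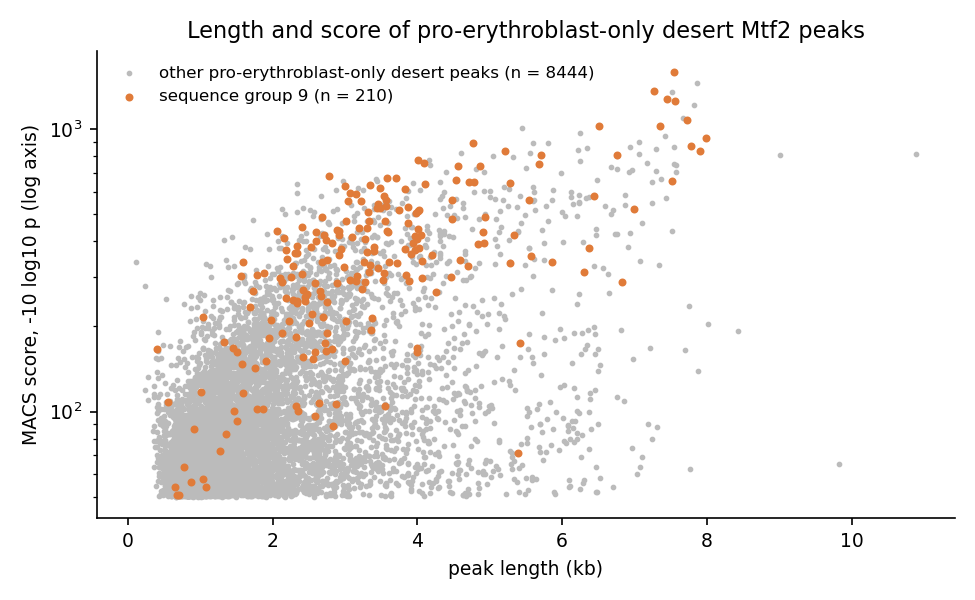
Peak length (x axis, kb) against peak score (y axis, -10 log10 p, log axis) for each of the 8654 regions, with the 210 of group 9 coloured. Group 9 lies mostly in the upper part of the plot, with a median score of 343 against 78.8 in the whole set, and the highest scores of the set lie between 7 and 8 kb.

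The H3K27me3 peaks of WT CD71+Ter119-/lo cells overlapped 677 of 8654 (7.82%, 7.28 to 8.41). Over all autosomal Mtf2 peaks of these cells the share was 9.82%, above that of the regions. The share among the regions depended on the peaks taken: it was 25% with as many pro-erythroblast as erythroblast Mtf2 peaks and 1.75% with a score of at least 100 in every list. Of the pro-erythroblast-only peaks outside deserts, 1085 of 14497 (7.48%, 7.07 to 7.92) were overlapped. The desert peaks shared with erythroblasts were overlapped more often, 279 of 940 (29.7%, 26.8 to 32.7), and were also longer, with a median of 3040 bp. The WT CD71+Ter119-/lo H3K27me3 list covered 0.204% of desert bases, and the regions together covered 15.9 Mb. Read from the other side, 705 of the 1458 desert peaks in this H3K27me3 list (48.4%, 45.8 to 50.9) overlapped a region of the set. The 940 shared desert peaks, far fewer in number, overlapped 326 of the same 1458 (22.4%). The set overlapped 14.2% of the desert peaks in the Mtf2-null CD71+Ter119high list. In the WT CD71+Ter119high and Mtf2-null CD71+Ter119-/lo lists it overlapped 3.41% and 1.4%. WT Mtf2 and WT H3K27me3 of the pro-erythroblasts share 1 IgG library, and its part in their overlap was not tested.

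In the other 3 lists the overlap was lower. In WT CD71+Ter119high erythroblasts, H3K27me3 overlapped 10 regions (0.116%, 0.0628 to 0.213), beside 0.36% of all autosomal Mtf2 peaks of the pro-erythroblasts. In Mtf2-null CD71+Ter119-/lo cells it overlapped 3 regions (0.0347%, 0.0118 to 0.102), beside 0.0775%. In Mtf2-null CD71+Ter119high cells it overlapped 317 regions (3.66%, 3.29 to 4.08), beside 2.71%. No region was overlapped in 3 or more lists, and 13 were overlapped in both the WT CD71+Ter119-/lo and the Mtf2-null CD71+Ter119high list. The remaining 7660 regions (88.5%) were overlapped in none. The lists differ in depth, with 18945784 unique tags in the WT CD71+Ter119-/lo H3K27me3 library and 30054186 in the WT CD71+Ter119high one. The Mtf2-null libraries had 37026535 for CD71+Ter119-/lo and 67169672 for CD71+Ter119high. The part of depth in these shares was not tested. The FDR given for the Mtf2-null CD71+Ter119-/lo peaks was 100% throughout. Fewer peaks in that list therefore cannot be told apart from its weak separation from IgG.

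The 677 regions with H3K27me3 in WT pro-erythroblasts had larger Mtf2 peaks at the median. Their median Mtf2 score was 158 and their median length 1996 bp, against 76.7 and 1383 bp for the 7660 regions without any H3K27me3 peak. They held a median of 16 CpG per kb against 10. Their H3K27me3 peaks had medians of 26 tags and a fold enrichment of 10.0, near the 22 tags and 9.14 of that whole list, and a median FDR of 10.9%. The 3 with the highest Mtf2 score were chr1:105101345-105109214, chr9:30449433-30456702 and chr4:75262556-75270075, whose H3K27me3 peaks held 64, 27 and 16 tags. The 317 regions with H3K27me3 in Mtf2-null CD71+Ter119high cells differed from these in score and composition. They had a median Mtf2 score of 75.2, 9 CpG per kb and a GC content of 39.9% against 45.1%. In length they did not fall short, with a median of 2235 bp, so long peaks were common to both overlapped sets.

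The 2 H3K27me3 lists met different sequence groups. With groups formed at 200 shared 25-mers, the highest WT CD71+Ter119-/lo share in a group was 25.6%. At 100, in group 9, 78 of 210 regions (37.1%, 30.9 to 43.9) were overlapped by WT CD71+Ter119-/lo H3K27me3, and 0 of 210 by the Mtf2-null CD71+Ter119high list, which allows a share of up to 1.43% if 3 counts are taken as the limit, or 1.80% by the Wilson bound. Group 7 followed with 82 of 328 (25%, 20.6 to 30.0), and with 2 of 328 (0.610%) in the Mtf2-null list. In groups 1, 2, 4, 5 and 10 the Mtf2-null list had the larger share. Both lists were read on the same regions, and 42.7% of regions lay within 10 kb of another. The intervals therefore do not measure the difference between the lists. Group 5 had 14 of 480 (2.92%, 1.75 to 4.84) in WT CD71+Ter119-/lo cells and 50 of 480 (10.4%, 7.99 to 13.5) in Mtf2-null CD71+Ter119high cells. Group 1 had 2.18% and 5.81%. Group 6 had 10.8% in WT CD71+Ter119-/lo cells and 1 of 360 (0.278%) in the Mtf2-null list. The groups differ in peak length and score, which move with the same overlap, and their part in it was not tested. The 2 lists also differ in genotype, stage and depth at once, so these cannot be told apart.

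**Figure D4:**
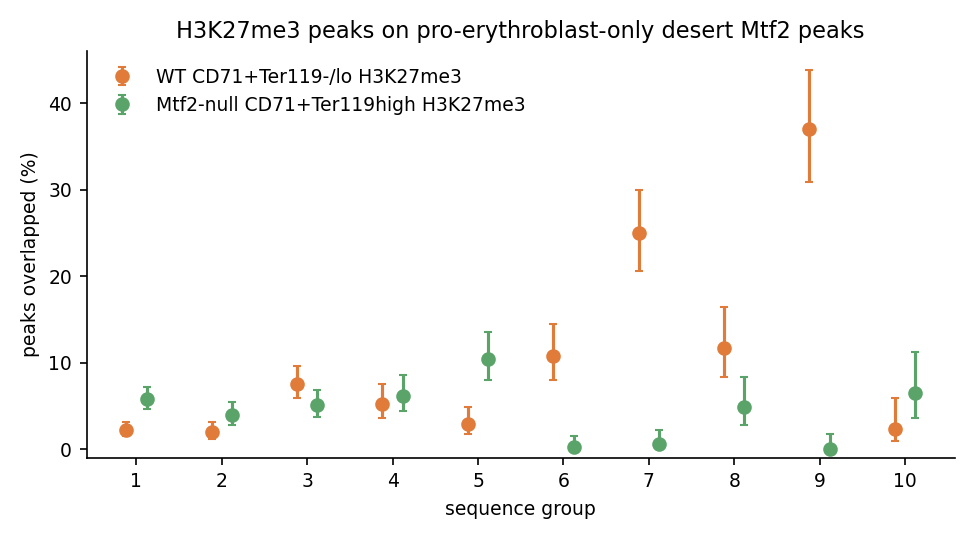
Percent of regions of each sequence group (x axis) overlapped by H3K27me3 peaks of WT CD71+Ter119-/lo cells and of Mtf2-null CD71+Ter119high cells, with 95% Wilson intervals. The WT list reaches 37.1% in group 9 and 25% in group 7, where the Mtf2-null list is at 0 and 0.610%, while the Mtf2-null list is highest in group 5 with 10.4%.

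The share of desert peaks without an erythroblast counterpart is given next by group and by score as a description only. That absence chose the set, and the groups were built on windows of regions chosen for it, so these shares are fixed in part by the selection. In group 9, 57.5% (52.4 to 62.5) of 365 desert peaks had no erythroblast counterpart, and in group 7 74.9% (70.6 to 78.7) of 438. In groups 1, 2, 5 and 10 the share was between 95.6% and 97.7%. Over all desert peaks it was 90.2% (89.6 to 90.8). It was 89.4% (88.9 to 89.9) outside deserts and 89.7% over all 25805 autosomal peaks, so it was much the same inside and outside deserts. The erythroblast Mtf2 library had 15669899 unique tags and 5309 peaks, against 29009650 unique tags and 28918 peaks in pro-erythroblasts. The FDR of the erythroblast peaks ran from 6.94% to 100%, and that of the pro-erythroblast peaks reached at most 0.31%. The part of depth and of this difference in the share was not tested.

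For the description by score, the desert peaks were divided by Mtf2 score into 5 classes of equal size. In the lowest class (50 to 58.68), 97.1% (96.3 to 97.8) had no erythroblast counterpart. In the highest class (168.31 to 1589.45) it was 71.1% (69.0 to 73.1), or 1364 of 1919. WT CD71+Ter119-/lo H3K27me3, which the rule did not use, overlapped 327 regions of the highest class (24.0%, 21.8 to 26.3) and 62 of the lowest (3.33%, 2.60 to 4.24). The Mtf2-null CD71+Ter119high list showed no such rise, with 3.49% in the lowest and 2.05% in the highest class. The median share of repeated 25-mers was 74.1% in the lowest and 93.2% in the highest class.

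**Figure D5:**
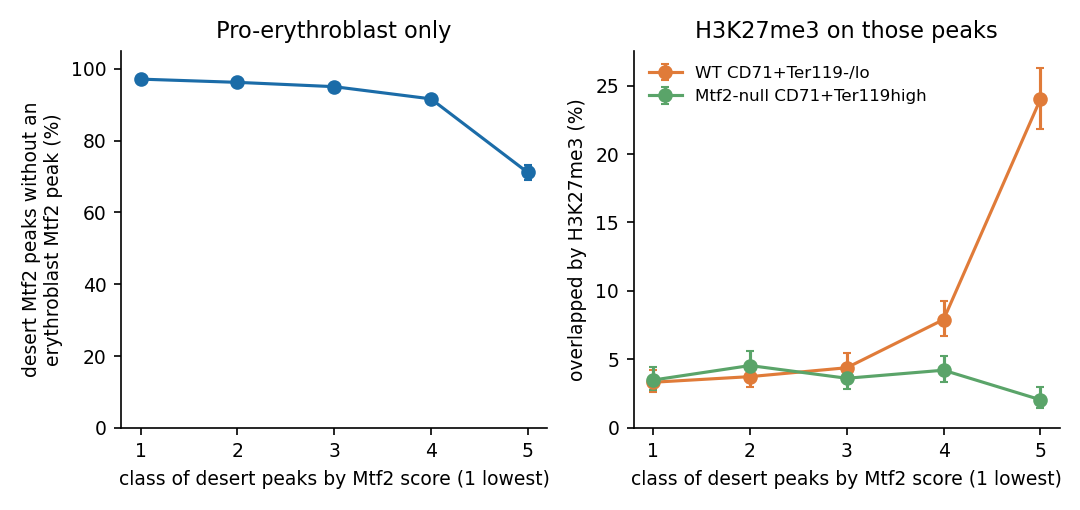
Left, percent of desert Mtf2 peaks without an erythroblast counterpart by class of Mtf2 score (x axis, 1 lowest); right, percent of those regions overlapped by H3K27me3 in 2 lists; bars are 95% Wilson intervals. From the lowest to the highest class the left value goes from 97.1% to 71.1%, and the WT CD71+Ter119-/lo value on the right from 3.33% to 24.0%.

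CpG content was higher than that of the surrounding desert, but island-like windows were rare. The 1 kb windows had a median GC content of 43.8% (43.6 to 43.9) against 39.2% in the tiles. The ratio of observed to expected CpG was 0.256 against 0.136. Over all autosomal Mtf2 peaks of these cells the medians were 44.5% and 0.257, so the set was not richer than the list it came from. Windows with at least 50% GC and a ratio of at least 0.6 made up 227 of 8654 (2.62%, 2.31 to 2.98), against 28 of 36322 tiles (0.0771%) and 3.07% of pro-erythroblast-only peaks outside deserts. Group 10 had the highest median GC content of the groups, 51.6%, and group 5 the lowest, 37.5%.

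Short motifs were counted on both strands in 300 bp around each summit and beside the 2367512 tiles of 300 bp that fill the deserts. Except for the CACCC motif, the shares were close to those of all autosomal Mtf2 peaks of these cells and differed from the tiles. For the CACCC motif the set was below both. The CG dinucleotide was present in 91.1% of the windows, 90.4% of the windows of all Mtf2 peaks and 74.7% of the tiles. GCG was present in 68.8%, 68.7% and 38.3%, and GCGCG or CGGCG (which overlap both) in 16.1% (15.3 to 16.9), 15.2% and 1.75%. The motif of the GATA factors, among them Gata1, the main activator of erythroid genes, was searched as AGATAA or TGATAA. It was present in 28.2% (27.3 to 29.2) of the set, 28.9% of all Mtf2 peaks and 38.6% of the tiles. It varied from 13.8% in group 3 to 62.1% in group 5. The CACCC motif CCNCNCCC, bound by erythroid Klf factors, was present in 10.5%, 13.2% and 13.4%. A run of 20 bases alternating C and A was present in 0.208%, 0.267% and 2.83%. Windows of the 940 shared desert peaks held the GATA letters in 37.0% (34.0 to 40.2).

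The regions were spread over the deserts rather than gathered in a few. They numbered 12.2 per Mb of desert, against 8.61 pro-erythroblast-only peaks per Mb outside deserts. Deserts made up 29.7% of the autosomal sequence. By chromosome the density ran from 9.85 per Mb on chromosome 19 to 13.5 on chromosome 1. Of all 1747 deserts, 1177 held at least 1 region. All 195 deserts of 1 Mb or more did, which at a density of 12.2 per Mb says little about the spread. These large deserts had a median of 11.8 per Mb and quartiles of 9.45 and 14.6. The densest of them, chr1:7256543-8351555 between Pcmtd1 and Sntg1, held 32 in 1.10 Mb. The median distance to the next region was 16.5 kb, and 42.7% (3694) lay within 10 kb of another.

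The 5 deserts with the most regions held 300 of them (3.47%). They were chr1:102382520-106565105 between Cntnap5b and Cdh20 with 67, chr1:113861487-117481332 between Dsel and Cntnap5a with 65, chr5:58520591-62100081 between Pcdh7 and G6pd2 with 64, chr8:50670836-54497079 between 4930555F03Rik and Aga with 53, and chr3:41646648-45082319 between D3Ertd751e and Pcdh10 with 51. They were large, from 3.44 to 4.18 Mb, with densities of 13.9 to 18 per Mb. Between 53.1% and 60.4% of their regions belonged to 1 of the 10 sequence groups. H3K27me3 of WT CD71+Ter119-/lo cells overlapped 11 of 67 in the first and 5 of 65 in the second.

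The set had 1658 different nearest genes, of which 249 were nearest to 10 or more regions. Neural adhesion and guidance genes, which are common beside deserts, were nearest to 746 regions (8.62%, 8.05 to 9.23) and to 8.38% of the tiles. Pcdh7, a protocadherin gene, led with 55 regions, 156.0 to 2020.0 kb from its TSS, with 7 overlapped by WT CD71+Ter119-/lo H3K27me3. Of the 36322 tiles, 167 were nearest to Pcdh7. Cntnap5b and Cntnap5a, of the contactin-associated family, had 44 and 41 regions, beside 117 and 111 tiles. Pcdh17 had 40 regions, beside 168 tiles.

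Erythroid and haematopoietic regulators were nearest to 31 regions (0.358%, 0.252 to 0.508) and to 0.429% of the tiles. Only 6 of the 25 genes of this list were nearest to a region. Gata3, a T-cell regulator of the GATA family, had 14 regions, of which 4 were overlapped by WT CD71+Ter119-/lo H3K27me3, and 65 of the 36322 tiles. Bcl11a, a repressor of embryonic globin genes, had 6 regions at 386.0 to 669.0 kb with none overlapped, and 32 tiles. Meis1 and Cxcr4 had 4 regions each, at 315.0 to 395.0 kb and 104.0 to 280.0 kb, and 18 and 13 tiles.

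Developmental transcription factors, the classical PRC2 targets, were nearest to 138 regions (1.59%, 1.35 to 1.88) and to 2.23% of the tiles, a larger share. Pou3f2 and Zic4 led with 16 and 15 regions, beside 46 and 39 tiles. Genes of the Wnt pathway, which the study examined, were nearest to 14 regions (0.162%, 0.0964 to 0.271) and to 0.229% of the tiles. WT CD71+Ter119-/lo H3K27me3 overlapped 0 of the 14, too few to bound the share closely. Ctnnb1, which encodes β-catenin, was nearest to 2 regions at 147.0 and 172.0 kb, and to 4 tiles. Clusters of sensory receptor genes were nearest to 44 regions (0.508%, 0.379 to 0.682) and to 0.267% of the tiles. Olfr161 alone accounted for 17 of the regions and 23 of the tiles. A nearest gene is a position and not a target, and no expression was examined.

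Few regions touched annotated non-coding genes. The summit lay inside a non-coding gene or pseudogene in 201 of 8654 regions (2.32%), close to the 2.66% of tiles whose centre did. Of these, 109 were processed transcripts, 47 pseudogenes, 44 lincRNA genes and 2 miRNA genes, with some in more than 1 class. The median distance to a protein-coding TSS was 311.0 kb and the largest 2480.0 kb, and 2626 regions were over 500 kb away.

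The limits of the selection cut through like regions. The regions just outside 100 kb were chr8:131109072-131110593, 100001 bp from a TSS of Itgb1 and with a score of 63.88, and chr4:58398458-58400300, 100009 bp from Musk with 84.95. Just inside lay chr1:29011956-29012511, 99987 bp from Gm17684 with a score of 88.72, and chr4:53952495-53953732, 99956 bp from Tmem38b with 78.92. The regions nearest to an erythroblast Mtf2 peak without touching it were chr14:40872728-40873740 at 9 bp and chr14:91086123-91088692 at 17 bp, with scores of 71.23 and 87.86. The peaks left out for the smallest overlap were chr1:18752894-18753726 with 4 shared bases and chr3:38664666-38666577 with 14, with scores of 116.93 and 105.73. An erythroblast Mtf2 peak lay within 1 kb of 171 regions (1.98%) and within 10 kb of 735 (8.49%), and the median distance was 144.0 kb.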

How the data were processed

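Mtf2 ChIP-seq of WT cells and H3K27me3 ChIP-seq of WT and Mtf2-null cells were analysed as deposited MACS peak lists, 1 per library. The authors' alignment used Bowtie2 2.2.3 (mm9), and their peak calling used MACS 1.3.7 with IgG as control (p cutoff 1e-05). The methods state replicates, and whether they were pooled is not said. The deposited tag counts are reads per peak, not normalised for depth. The deposited score is -10 log10 p by the authors' peak caller, the deposited fold enrichment is a ratio to IgG, and the deposited FDR is a percent. Depth ran from 15669899 to 67169672 unique tags per ChIP library.

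Genes came from GENCODE M1 on NCBIM37 (22367 protein-coding genes, 69963 TSS). An overlap meant 1 or more shared bases. Composition and 25-mer copies were read from 1 kb around each summit and motifs from 300 bp. No test was run, since each condition had 1 library. Alternatives covered score, FDR, list size, desert distance, gene biotypes, overlap rule, peak centre and X. Regions were named by highest score, fold enrichment, length, H3K27me3 and nearness to the limits of the selection, deserts by number of regions, and genes as the nearest of each list. One region that this rule names is not reported here. The regions and gene lists were chosen with earlier results of these data known, and the 25-mer copies, the sequence groups, the 40-base runs and the counts by peak length after values of these data were seen. The overlap, desert and 25-mer steps gave the known answer for 1000 of 1000 intervals, 50000 of 50000 positions and 1952 of 1952 25-mers of simulated data. The steps ran in Python 3.11.15 with numba 0.67.0, pandas 2.3.3, numpy 2.4.6, matplotlib 3.10.9 and scipy 1.17.1.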

Additional observations from a re-analysis of the deposited data

How the results depend on the processing

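No paired analysis was possible because each condition had 1 library, and for the same reason none could be left out. The 8654 regions became 3602 with a score of at least 100 in every list, 1253 when the pro-erythroblast list was reduced to its 5309 highest-scoring peaks, and 5415 with genes of every biotype. The first 2 gave 5.07 and 1.76 regions per Mb, 46.7% and 47.9% median GC content, 92.0% and 93.5% repeated 25-mers at the median, the GATA letters in 27% and 26.4%, and no erythroblast counterpart for 96.6% and 70.0% of desert peaks. That last share was 91.1% with erythroblast peaks at an FDR of at most 10%, 88.4% with none within 1 kb, and 96.6% where 50% of the bases had to be shared. The share overlapped by WT CD71+Ter119-/lo H3K27me3, 7.82% as reported, was 1.75% with a score of at least 100 in every list, where fewer H3K27me3 peaks remained, 25% in the reduced list and 9.56% with the 50% rule, which also gave 86.1% repeated 25-mers. It was 5.13%, 6.10% and 12.2% in 3 classes of increasing length, and 6.76% in the mostly single-copy regions, whose median GC content was 41.2%. Median GC content was 46.3% over 300 bp and 44.4% over the whole peak. With 100 copies in place of 10, the median share of repeated 25-mers was 69.2%. Neural adhesion and guidance genes were nearest to 7.17% of regions at 50 kb, 11.2% at 200 kb and 9.84% with every biotype. No tile share is given for these settings, so these 3 values cannot be read against the desert background. In 57 other combinations the value stayed within its 95% interval, or within 1.5 times for counts. The single-copy, 100-copy, motif and nearest-gene alternatives were chosen after seeing the data, as was a threshold of 200 shared 25-mers, at which the 10 groups held 149 to 729 regions, the highest median score in a group was 150.5 and the highest WT CD71+Ter119-/lo H3K27me3 share in a group was 25.6%. Without coverage files, signal below the peak cutoff could not be compared between stages.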
